A study of Mus musculus with 43 samples.

Results

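Genic piRNA precursor loci are stretches of the mouse genome that give rise to PIWI-interacting RNAs (piRNAs) and carry the name of the gene they overlap, here called the host gene. They were chosen by name, as every row of the 3 count tables that starts with pi-. The tissue table and the sperm table each listed 249 such rows from 114 loci. The fluid table listed 239 rows from 113 loci, and the 3 tables together listed 5364 distinct rows of all kinds. A locus may have several rows, 1 for each annotated isoform, such as pi-Lpp.1. There were 32 loci with 1 row and 82 with more, up to 14 rows for pi-Ip6k1. Isoforms share reads, and 50 tissue rows, 48 fluid rows and 48 sperm rows had exactly the counts of another row of the same locus in every library. Rows are therefore not independent, and results are given for rows and for loci.

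Small RNAs were measured in 43 libraries from wild type (WT) FVB mice and from Rnase9-12 knockout (KO) FVB mice, all 8 to 12 weeks old. In the KO mice the Rnase9 to Rnase12 cluster, epididymis-specific members of the RNase A family, was deleted in the germline with CRISPR-Cas9, so every cell of the animal carried the deletion. Epididymis tissue gave 17 ARM-seq libraries, with 3 WT and 3 KO of the caput (the proximal segment), 3 WT and 2 KO of the corpus (the middle) and 3 WT and 3 KO of the cauda (the distal segment, where sperm are stored). Epididymal fluid cleared of sperm, vesicles and debris gave 18 OTTR-seq libraries, 3 WT and 3 KO for each segment, and cauda sperm gave 8 OTTR-seq libraries, 4 WT and 4 KO. Each fluid or sperm library pooled RNA from 3 mice, while pooling of tissue was not stated. The 3 tables were made separately, and tissue used another library kit than fluid and sperm, so no test was run across them.

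piRNAs are small RNAs of the germline, bound by PIWI proteins, and are longer than microRNAs. In the mouse testis they are cut from long single-stranded transcripts. Some of these precursors come from protein-coding genes, mostly from the 3′ part of the mRNA, and others from intergenic clusters. The former appear before meiosis and the latter rise at the pachytene stage under the transcription factor A-MYB. The epididymis is a somatic duct outside the testis, and rows named after a gene there count any small read that falls within the annotated precursor, whether or not it is a piRNA.

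Of the 114 loci, 112 matched a host gene in GENCODE vM21 (GRCm38, the assembly also called mm10), 7 of them through an older symbol. The hosts lay on 19 chromosomes with none on the X or the Y, and 111 were protein coding. Their spans ran from 0.741 to 599.072 kb with a median of 35.72 kb. Within RefSeq promoter windows of 84 hosts, the A-MYB core AACNG was present on either strand in 74.8% of 103 windows, against 80.3% of all 32851 windows of that length.

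Some hosts contain other small RNA genes on the same strand, whose reads could be counted on both rows. There were 15 such hosts, and in 6 of them the inner small RNA had a row of its own in at least 1 table. Of the mature microRNAs that lie in the 3 loci discussed below, all but miR-546, miR-32-3p and miR-28a-3p are given 5′ to 3′ from RefSeq (GRCm38.p6). The seed (bases 2 to 8) is in capitals. They are shown because their reads could make up part of the counts of the precursor rows.
miR-26a-5p, in Ctdsp2: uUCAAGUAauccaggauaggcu
miR-26a-2-3p, in Ctdsp2: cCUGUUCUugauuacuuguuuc
miR-32-5p, in Tmem245: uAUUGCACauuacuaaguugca
miR-28a-5p, in Lpp: aAGGAGCUcacagucuauugag

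miR-26a-5p lies at chr10:126995543-126995564 on the plus strand, inside Ctdsp2 (chr10:126978717-126999975), which encodes a phosphatase of the RNA polymerase II tail. Summed over libraries, the row of its gene Mir26a-2 held as many counts as 78.8% of pi-Ctdsp2.1 in the tissue table, 94.9% in that of fluid and 68.4% in that of sperm, and in no library did it exceed the precursor row. The same mature sequence is also made from Mir26a-1 elsewhere in the genome. pi-Ctdsp2 values below are therefore values of a row whose counts could largely be miR-26a. miR-32-5p lies at chr4:56895272-56895293 on the minus strand in an intron of Tmem245 (chr4:56866923-56947437), the host of pi-D730040F13Rik. Its gene held as many counts as 19.8% of pi-D730040F13Rik.1 in fluid and 9.90% in sperm. A snoRNA of the same host, Gm25053, held as many as 72.5% in tissue. In contrast, miR-28a-5p at chr16:24827868-24827889 on the plus strand, in an intron of Lpp, matched only 0.812% of pi-Lpp.1 in the tissue table, 5.66% in that of fluid and 0.160% in that of sperm.

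The first question was how much of each library fell on genic piRNA rows. In tissue of WT mice the share of all counts was 0.00899 ± 0.000929% in the caput, 0.0290 ± 0.0131% in the corpus and 0.0539 ± 0.0130% in the cauda (SD, n = 3 each). In tissue of KO mice it was 0.00916 ± 0.00161% in the caput (n = 3), 0.0112 ± 0.00311% in the corpus (n = 2) and 0.0403 ± 0.00331% in the cauda (n = 3). Thus the corpus of KO mice was near the caput, whereas the 3 WT corpus libraries lay above both KO ones. In WT fluid the share was 0.120 ± 0.0224%, 0.119 ± 0.0197% and 0.0761 ± 0.0315% from caput to cauda, and in KO fluid 0.144 ± 0.0376%, 0.179 ± 0.0316% and 0.118 ± 0.0167% (n = 3 each). Sperm had the highest shares, 0.486 ± 0.371% in WT and 0.217 ± 0.0394% in KO (n = 4 each). The 4 WT sperm libraries held 0.218%, 0.373%, 1.04% and 0.320%, so 1 library decided the WT mean. A read that matched several isoform rows of a locus can be counted in each of them in these sums. With 1 row per locus the shares were 0.00427%, 0.0141% and 0.0276% in WT caput, corpus and cauda tissue, and 0.255% in WT and 0.109% in KO sperm. Without pi-Ctdsp2, WT fluid held 0.0968%, 0.0894% and 0.0450% from caput to cauda. Shares between kits or between tables are not comparable as amounts.

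**Figure D1:**
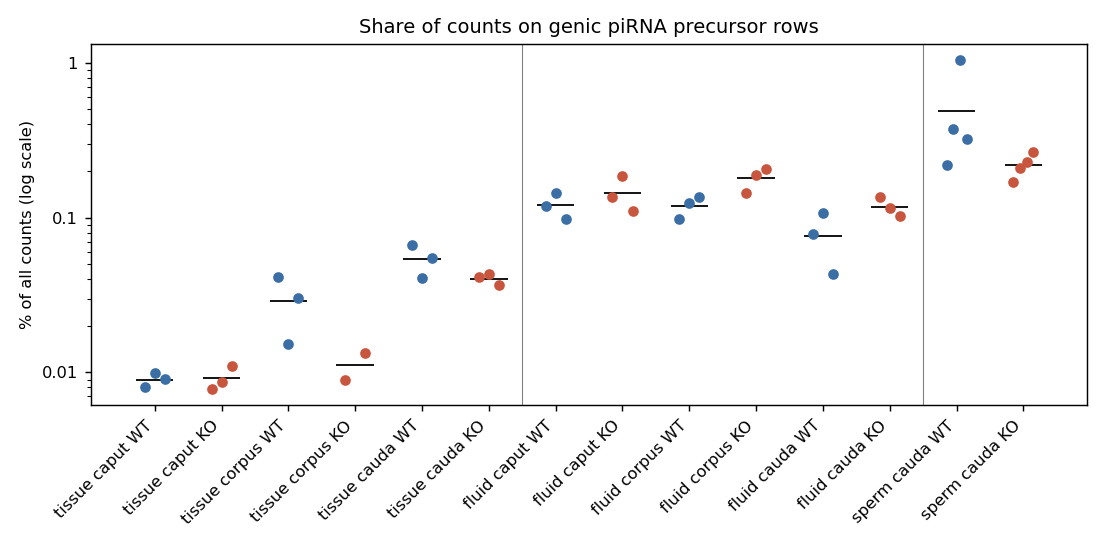
Percent of all counts that fell on genic piRNA precursor rows in each library (points, log scale), by sample type, segment and genotype, with WT in blue and KO in red; horizontal lines are group means. In WT tissue the mean rose from 0.00899% in caput to 0.0539% in cauda, while 1 WT sperm library reached 1.04%.

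Library totals were 30142156 to 249732714 counts for tissue, 1948718 to 12320922 for fluid and 1134840 to 62128314 for sperm. Genic rows above 0 numbered 238 to 249 per tissue library, 206 to 239 per fluid library and 239 to 249 per sperm library. The low-count filter left 232 genic rows (110 loci) among 3488 rows of the tissue table, 202 (99 loci) among 2023 of the fluid table and 241 (113 loci) among 2480 of the sperm table. In bulk RNA, fewer cells of a type and less RNA per cell cannot be told apart. In tissue, 7 of 12 germ cell microRNAs fixed as markers were listed, and their sums were at most 1.52 CPM (a row's counts relative to the TMM-scaled size of its library) in any library. In WT sperm all 12 were listed, with sums of 22.6 to 64.1 CPM.

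Among WT libraries, Lpp and Ankrd11 were among the 8 loci with the highest mean CPM in all 3 tables. Lpp encodes an adhesion and cytoskeleton protein and has the longest host span, and pi-Lpp.1 averaged 13.03 CPM in tissue libraries, 17.002 in those of fluid and 141 in those of sperm. Ankrd11 encodes a chromatin regulator, and pi-Ankrd11.1 averaged 5.16, 10.4 and 44.8 CPM. Level followed the host's length. Over 112 loci, Spearman's rank correlation between WT CPM and host span was 0.70 in caput tissue, 0.60 in cauda tissue and 0.84 in sperm, and over 111 loci it was 0.59 in caput fluid. With the summed exon length of the host, it was 0.53, 0.49, 0.60 and 0.41 in the same order. The points share libraries, and span and exon length were themselves correlated (Spearman's 0.69). Per kb of host span the order was different. The short gene Rplp1, of the ribosomal stalk, led fluid (16.4 CPM per kb) and sperm (11.8), and Fth1, the ferritin heavy chain, led tissue (1.01). Both have near-identical copies in the genome, and their counts are uncertain for that reason. Loci kept much the same order across sample types, with a Spearman correlation of 0.80 between cauda tissue and sperm and 0.90 between caput and cauda tissue.

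Segments were then compared in WT tissue. Most genic piRNA rows were higher in the corpus and in the cauda than in the caput, from hosts of many functions. The cauda was not tested against the corpus. Rows were called higher at an adjusted p under 0.05 and a log2 fold change above 1. Between corpus and caput, 188 of 232 rows (90 of 110 loci) were called higher, against 9% of all rows tested. Called lower were 0, against 2.81% of all rows. The median log2 fold change was 2.55, against 0.08 over all rows. Between cauda and caput, 221 rows (107 loci) were called higher, against 15.7% of all rows, with a median of 3.52 against -0.05 over all rows. Of the intergenic piRNA rows, named by cytoband, 10 of 129 were called higher in the corpus and 26 of 129 in the cauda, with medians of 1.27 and 1.21. Over 4 ways of scaling, the genic medians were 2.05 to 2.55 and 2.95 to 3.52, while the median of all rows in the cauda moved to as low as -0.46. The number called in the corpus fell to 123 without WT corpus replicate 1, which held the highest genic share of that group. With the replicate number as a block the counts were 204 and 224.

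**Figure D2:**
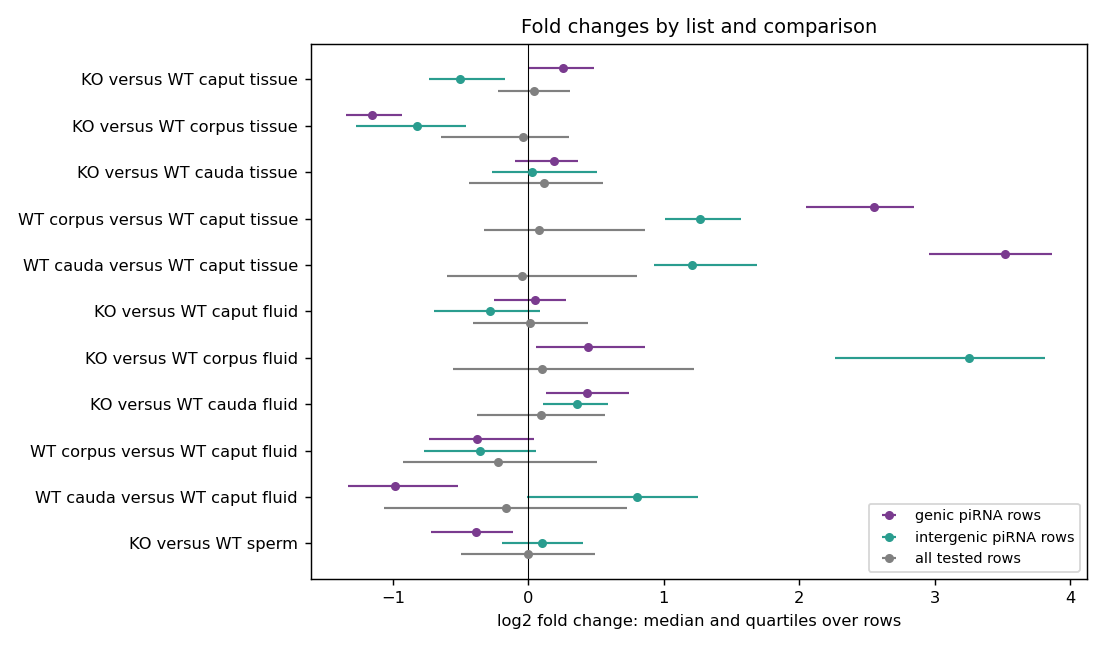
Median log2 fold change (points) and quartiles (bars) of the genic piRNA rows, the intergenic piRNA rows and all rows tested, in 11 comparisons. The genic rows had medians of 2.55 and 3.52 in WT corpus and cauda tissue against caput, and of -1.15 in KO against WT corpus tissue.

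pi-Rc3h1.1 had the smallest p between cauda and caput; its host encodes Roquin-1, a protein that promotes mRNA decay. It measured 0.205, 0.195 and 0.183 CPM in the 3 caput libraries, 2.11, 0.789 and 1.17 in the corpus and 4.05, 3.97 and 2.21 in the cauda. The 3 segments did not overlap, and the log2 fold change from caput to cauda was 4.12 ± 0.48 (SE; edgeR adjusted p = 1.83e-05). The row with the largest log2 fold change was pi-Ppp1r12b.1, whose host is a myosin phosphatase subunit of muscle. It rose from 0.476, 0.634 and 0.405 CPM in the caput to 22.7, 13.5 and 9.77 in the cauda, a log2 fold change of 4.93 ± 0.61 (edgeR adjusted p = 2.89e-05). pi-Lpp.1 rose from 1.24, 1.94 and 1.41 CPM to 33.7, 30.1 and 16.1, again without overlap. Its log2 fold change was 4.12 ± 0.52.

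The rise was seen across the roles of the hosts. By lists of hosts drawn up by function after values had been seen, loci with a row called higher in cauda against caput were 10 of 10 chromatin and DNA methylation genes, 15 of 15 transcription factors and cofactors, 16 of 16 signalling genes, 10 of 10 cytoskeleton and membrane traffic genes, and 8 of 10 RNA-binding and translation genes. Examples were pi-Nsd1.1 (a histone methyltransferase) with a log2 fold change of 4.01, pi-Foxo3.2 (a forkhead transcription factor) with 3.35, pi-Ip6k1.5 (an inositol phosphate kinase) with 4.26, pi-Arhgap20.1 (a GTPase-activating protein) with 4.0, and pi-Eif4ebp2.2 (a translation repressor) with 4.31. By lists set from symbol prefixes, called loci were 7 of 7 zinc finger, 4 of 5 ubiquitin, 4 of 4 kinase and phosphatase, 3 of 3 translation and 1 of 1 RNA-binding hosts, and 88 of 90 of the rest. The translation list holds pi-Eif2c2 by its older symbol only, since its host is Ago2. With 107 of 110 loci called, the lists had little room to differ, and no difference between roles is read from them. In the corpus the same lists gave 6 of 7, 3 of 5, 4 of 4, 2 of 3, 1 of 1 and 74 of 90. Corpus examples were pi-Arhgap20.1 with 3.58 (adjusted p = 0.00174), pi-Tef.3 with 3.15 and pi-Ndst1.1 with 2.70, from hosts that encode a PAR bZIP transcription factor and a heparan sulfate enzyme.

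The loci with no row called between cauda and caput were Igf2bp1 and Trim71, RNA-binding genes known from embryonic cells, and D730040F13Rik. pi-D730040F13Rik.1, the row that shares counts with a snoRNA, measured 2.45, 2.44 and 5.15 CPM in the caput and 5.81, 5.46 and 4.78 in the cauda. The groups overlapped, and the log2 fold change was 0.67 (adjusted p = 0.217). pi-Ctdsp2.1 rose from 6.02, 2.91 and 3.47 CPM to 15.9, 8.70 and 10.1, a log2 fold change of 1.48 (adjusted p = 0.00769), which was below the median of the genic rows. Mir26a-2 itself had 0.85 (adjusted p = 0.13).

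**Figure D3:**
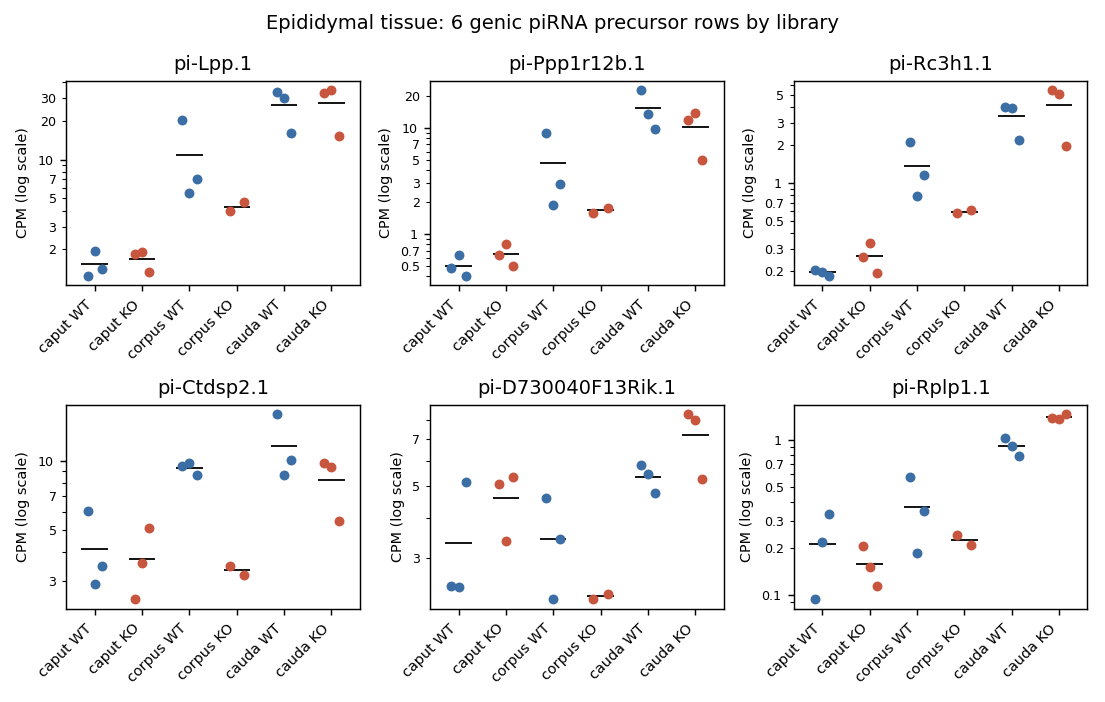
CPM (log scale) of 6 genic piRNA rows in each tissue library by segment and genotype, with WT in blue and KO in red; horizontal lines are group means. pi-Lpp.1, pi-Ppp1r12b.1 and pi-Rc3h1.1 rose from caput to cauda with no overlap in WT, whereas pi-D730040F13Rik.1 overlapped.

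Smooth muscle markers moved with the segments. Mir143 and Mir145a, the 2 of 3 smooth muscle markers that the table listed, summed to 20.6 to 40.3 CPM in WT caput, 44.2 to 87.5 in WT corpus and 108 to 215 in WT cauda. The corpus of KO mice had 24.3 to 29.5 CPM. The 5 epithelial microRNAs of the miR-200 family summed to 7.57 to 22.5 CPM in WT caput, 8.66 to 15.7 in WT cauda, 16.3 to 25.9 in WT corpus and 10.5 to 10.7 in KO corpus. The 3 of 4 blood microRNAs listed summed to at most 0.178 CPM in WT tissue. In the corpus their sums were 0.108 to 0.163 CPM in WT and 0.0575 to 0.0664 in KO. Germ cell microRNAs summed to 0.0975 to 0.429 CPM in WT caput and 0.0763 to 0.996 in WT cauda. Their corpus sums overlapped between genotypes, at 0.209 to 0.460 CPM in WT and 0.432 to 0.474 in KO. The part of these cells in the genic piRNA values was not tested.

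To ask what the deletion did in tissue, KO was compared with WT within each segment. In the caput no genic row was called (0% of all rows), and DESeq2 called 0. None had an unadjusted p under 0.05, against 0.315% of all rows higher and 0.659% lower. pi-Fth1.1 had the smallest p, with 1.12, 0.908 and 0.691 CPM in KO and 0.243, 0.427 and 0.738 in WT. The groups overlapped, and the log2 fold change was 0.93 ± 0.48 (edgeR adjusted p = 0.9996). pi-Nsd1.3 had 1.12 and did not pass either.

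In the corpus nearly all genic rows had lower values in KO, but edgeR called none (0% of all rows). The log2 fold change was negative for 230 of 232 rows with a median of -1.15, against -0.04 over all rows, -0.82 over intergenic piRNA rows and -1.02 over the 172 microRNAs tested. Without WT corpus replicate 1 the genic median was -0.50. In 88 rows (47 loci) both KO libraries were below all 3 WT libraries, against 15.2% of all rows, and 89 were lower at an unadjusted p under 0.05, against 7.22% of all rows. DESeq2, whose calls over all rows were not counted, called 3 genic rows, all of pi-Ctdsp2. pi-Ctdsp2.1 measured 3.49 and 3.198 CPM in KO and 9.52, 9.77 and 8.68 in WT, and its log2 fold change was -1.48 (edgeR adjusted p = 0.418, DESeq2 adjusted p = 0.0430). pi-Tmem194.1 had the smallest edgeR p, with 0.0144 and 0.0221 CPM in KO against 0.269, 0.139 and 0.0664 in WT and a log2 fold change of -2.90. pi-Lpp.1 was at 3.94 and 4.65 CPM in KO and at 20.3, 5.502 and 7.004 in WT, so both KO values were below every WT value, and the WT values themselves spread widely.

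In the cauda the genic rows were not called (0 of 232, against 0.86% of all rows). At an unadjusted p under 0.05 there were 4 rows higher, against 7.74% of all rows, and 1 lower, against 7.37%. DESeq2 called 0. The median was 0.19, but it was -0.42 with scaling by library size alone and -0.39 with scaling on rows other than tRNA and rRNA, so no direction is given. WT and KO libraries of one number varied together in cauda tissue. With the replicate block, whose calls over all rows were not counted, 3 of 232 genic rows were called higher. These were pi-Tfcp2l1.1 (log2 fold change 1.43, adjusted p = 0.0358), pi-Uhmk1.1 (1.11, adjusted p = 0.0403) and pi-Klhl11.1 (1.08, adjusted p = 0.0482), from hosts that encode a transcription factor, an RNA-linked kinase and a ubiquitin ligase adaptor. pi-Tfcp2l1.1 measured 6.46, 6.13 and 2.58 CPM in KO and 1.69, 2.33 and 1.28 in WT, with no overlap. The KO effect was also compared between cauda and caput tissue, and no genic row was called (0% of all rows, 0 by DESeq2). At an unadjusted p under 0.05 there were 0, against 2.38% of all rows higher and 3.67% lower. pi-Rplp1.1 and pi-Dnmt3a.1, the latter from a DNA methyltransferase gene, had the smallest p there.

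In fluid, genic rows were lower in the cauda than in the caput. From caput to cauda of WT mice, 48 of 202 genic rows (25 of 99 loci) were called lower, against 15.4% of all rows. Called higher were 0, against 9.69% of all rows. The log2 fold change was negative for 189 rows, with a median of -0.99 against -0.17 over all rows and 0.80 over intergenic piRNA rows. The median stayed negative in all 4 scalings (-0.64 to -0.99). The count of 48 fell to 10, 6 and 15 without caput WT replicate 1, 2 and 3, and to 17 and 8 without cauda WT replicate 1 and 3.

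The smallest p belonged to Foxo3, a transcription factor of stress and survival responses. pi-Foxo3.2 measured 37.0, 122 and 75.7 CPM in caput fluid, 9.40, 31.4 and 23.3 in the corpus and 4.60, 6.07 and 3.40 in the cauda. Caput and cauda did not overlap, and the log2 fold change was -4.05 ± 0.60 (edgeR adjusted p = 9.08e-05). In tissue the same row rose, from 0.373, 0.768 and 0.458 CPM in caput to 6.80, 5.95 and 3.49 in cauda. Other rows that fell were pi-Bend4.1 (a BEN domain gene) with -3.01, pi-Rab11fip4.2 (recycling endosomes) with -2.29, pi-Phf20.1 (a histone reader) with -1.50 and pi-Ankrd11.1 with -1.48. pi-Ankrd11.1 went from 13.2, 16.3 and 14.8 CPM to 4.60, 6.95 and 4.25. By function, loci called lower were 4 of 9 chromatin, 3 of 14 transcription factor, 2 of 10 RNA-binding and translation, 3 of 8 cytoskeleton and 0 of 15 signalling hosts. By prefix they were 1 of 6 zinc finger, 1 of 5 ubiquitin, 23 of 80 other, and 0 of the 4 kinase and phosphatase, 3 translation and 1 RNA-binding hosts. pi-Ctdsp2.1, with its miR-26a counts, did not pass the test (0.35, adjusted p = 0.52) and had 103, 81.7 and 83.2 CPM in the caput against 146, 124 and 71.0 in the cauda.

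Between corpus and caput fluid of WT mice, 6 rows of 4 loci were called lower (9.54% of all rows) and 0 higher (8.21% of all rows). They included pi-Foxo3.2 with -1.87, pi-March08.1 with -1.30 and pi-Rab11fip4.1 with -1.60. Here the direction depended on scaling, since the set gave 11 rows higher and 0 lower when scaled on rows other than tRNA and rRNA, and none when scaled by library size alone. Leaving out any 1 of the 6 WT libraries left 0 to 2 rows called.

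**Figure D4:**
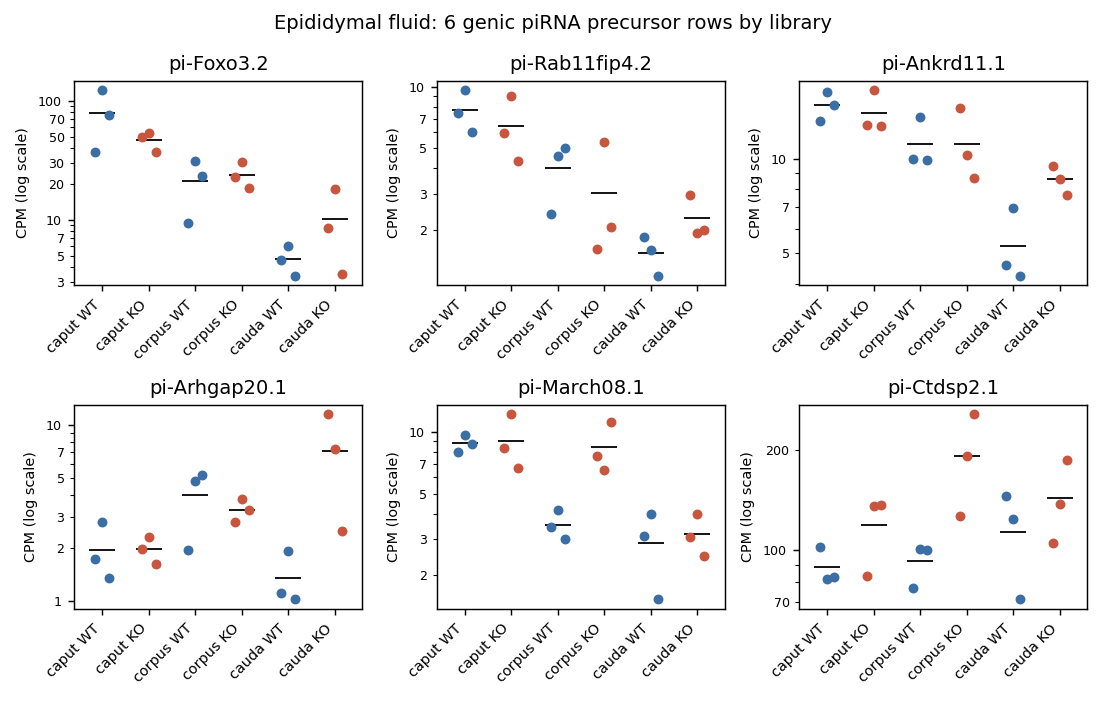
CPM (log scale) of 6 genic piRNA rows in each fluid library by segment and genotype, with WT in blue and KO in red; horizontal lines are group means. pi-Foxo3.2 went from 37.0 to 122 CPM in WT caput to 3.40 to 6.07 in WT cauda, and pi-Arhgap20.1 was higher in all 3 KO cauda libraries than in the WT ones.

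Sums of germ cell microRNAs were higher towards the cauda, at 2.79 to 4.79 CPM in WT caput, 5.93 to 20.13 in WT corpus and 25.5 to 52.0 in WT cauda. Epithelial microRNAs summed to 103 to 182 CPM in WT caput, 27.1 to 62.5 in WT corpus and 75.1 to 132 in WT cauda. Smooth muscle microRNAs, 2 of 3 listed, summed to 76.8 to 138, 90.6 to 168 and 147 to 321 CPM in the same order. Blood microRNAs summed to 30.7 to 35.0, 31.9 to 67.7 and 76.1 to 86.1 CPM. Both were thus also higher in the cauda than in the caput, without overlap. The part of any of these cells in the fall of the genic rows was not tested.

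KO was compared with WT in the fluid of each segment. In caput fluid no genic row was called (0% of all rows), 1 was higher at an unadjusted p under 0.05 (5.44% of all rows), and DESeq2 called 0. The smallest p belonged to pi-Zfp652.1 (0.90) and pi-Zbtb37.1 (1.13), zinc finger hosts. In corpus fluid 7 of 202 rows (6 loci) were called higher, 3.47% against 13.4% of all rows, and 1 lower, 0.495% against 6.23%. Genic rows were thus called less often than all rows. Every KO corpus library was smaller than every WT one, at 2474993, 3373869 and 1948718 counts against 6752462, 10172577 and 3989262. The part of depth in these values was not tested. Among intergenic piRNA rows, 121 of 150 were called higher with a median of 3.25, against 0.44 for the genic rows. Leaving out any 1 of the 6 corpus libraries left 0 to 4 genic rows called, with 0 without WT replicate 3, and without KO replicate 2 the genic median was 0.21.

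pi-Uhmk1.1 was at 7.62, 8.37 and 3.31 CPM in KO corpus fluid and at 1.94, 2.64 and 2.01 in WT, with a log2 fold change of 1.54 ± 0.48 (edgeR adjusted p = 0.0293). pi-Cbx5.2, from the gene of heterochromatin protein HP1α, was at 15.2, 18.4 and 14.5 CPM in KO and at 4.93, 8.47 and 10.1 in WT (1.04, adjusted p = 0.0465). The groups did not overlap for either row. pi-March08.1, pi-Kcng3.1 and pi-Ddx19b.2, from a membrane ubiquitin ligase, a potassium channel subunit and an RNA helicase, had log2 fold changes of 1.23, 1.68 and 1.69. The other higher rows, pi-1700006A11Rik.1 and pi-1700006A11Rik.2, each rested on 4, 2 and 13 counts in KO and 2, 0 and 0 in WT. The lower row, pi-Zfp652.3, rested on 1, 0 and 0 counts in KO and 6, 14 and 13 in WT. Its isoform pi-Zfp652.2 had more counts, 20, 21 and 11 in the smaller KO libraries and 31, 86 and 25 in WT. That row was not called. pi-Ctdsp2.1 missed the threshold with 1.06 (adjusted p = 0.0533), and Mir26a-2 passed it with 1.105 (adjusted p = 0.0476). Scaled on rows other than tRNA and rRNA, 2 genic rows were called higher and 16 lower and the median turned to -0.44, and the median of all rows moved to -0.78. Epithelial microRNAs summed to 87.5 to 134 CPM in KO corpus fluid and to 27.1 to 62.5 in WT, with no overlap, and germ cell microRNAs to 20.05 to 29.4 in KO and 5.93 to 20.13 in WT. Smooth muscle microRNAs (127 to 267 in KO, 90.6 to 168 in WT) and blood microRNAs (35.3 to 190 in KO, 31.9 to 67.7 in WT) overlapped. The part of any of these cells was not tested.

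In cauda fluid edgeR called no genic row (0% of all rows), with 11 of 202 higher at an unadjusted p under 0.05, a share near the 6.48% of all rows. In 32 rows all 3 KO libraries were above all 3 WT libraries, against 6.03% of all rows. DESeq2 called 2 rows, both of pi-Arhgap20, and edgeR called 2 without KO replicate 3 or without WT replicate 2. Calls over all rows were not counted for either. pi-Arhgap20.1 measured 11.6, 7.35 and 2.50 CPM in KO cauda fluid and 1.103, 1.94 and 1.02 in WT, a log2 fold change of 2.38 ± 0.53 (edgeR adjusted p = 0.173, DESeq2 adjusted p = 0.0104). In the corpus it was 2.81, 3.78 and 3.31 in KO and 1.94, 4.80 and 5.23 in WT, which overlapped. The KO effect was lower in corpus than in cauda fluid for pi-Arhgap20.1 by a log2 difference of -2.64 (edgeR adjusted p = 0.0343) and for its isoform pi-Arhgap20.2 by -2.59. These were the only 2 genic rows called for that difference (7.37% of all rows), and no row was called with scaling by library size, without the low-count filter, or with the compared groups fitted alone. pi-Bend4.1 had 1.62 in cauda fluid and did not pass.

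In sperm, edgeR called no genic row between KO and WT (0% of all rows). At an unadjusted p under 0.05, 21 of 241 rows (13 loci) were lower, a share near the 9.48% of all rows that were lower. At the same threshold 0 were higher, against 8.02% of all rows. The median log2 fold change was -0.39, against 0.00 over all rows and 0.10 over intergenic piRNA rows, and it was negative in all 4 scalings (-0.39 to -0.73). It was -0.79 without WT replicate 1, -0.23 without WT replicate 4 and -0.61 without KO replicate 1. Sperm depth differed between the genotypes. WT libraries held 52607365, 2899859, 1134840 and 3025269 counts in replicate order, and KO libraries 44325673, 42764979, 62128314 and 3618739. The part of depth in the sperm values, including the shares and the rows below, was not tested. DESeq2 called 6 rows lower, of pi-Zbtb49, pi-Bend4 and pi-Igsf9b, and edgeR called 6 without WT replicate 4. Calls over all rows were not counted for either.

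The WT libraries spread widely at several loci. pi-Hmbox1.1, from the gene of a telomere-binding homeobox protein, measured 18.1, 105, 1316 and 24.9 CPM in WT and 31.5, 16.1, 21.05 and 24.4 in KO. Only WT replicates 2 and 3 were above the KO range. The log2 fold change was -3.97 ± 1.15 (edgeR adjusted p = 0.154), and -1.13 without WT replicate 3. pi-Zbtb49.1, from a zinc finger gene, had 1.56, 19.5, 37.5 and 1.81 CPM in WT and 2.59, 1.30, 1.42 and 3.77 in KO, with the same WT libraries high. Its log2 fold change was -2.78 ± 0.91, and -1.82 without WT replicate 3. pi-Phf20.1 went from -1.63 to -0.39 when that library was left out.

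pi-Rab11fip4.2 was high in another library, with 9.07, 85.02, 38.6 and 258 CPM in WT and 15.6, 9.02, 9.44 and 130 in KO, where WT replicate 4 and KO replicate 4 stood highest. Its log2 fold change was -1.27 (adjusted p = 0.582). pi-Lpp.1 had 70.1, 175, 186 and 131 CPM in WT and 107, 73.9, 93.0 and 148 in KO, and the groups overlapped. pi-Fth1.1 had 17.3, 10.9, 11.6 and 11.9 CPM in WT and 17.7, 19.3, 18.3 and 20.6 in KO. The groups did not overlap, but the log2 fold change of 0.54 did not pass (adjusted p = 0.542).

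**Figure D5:**
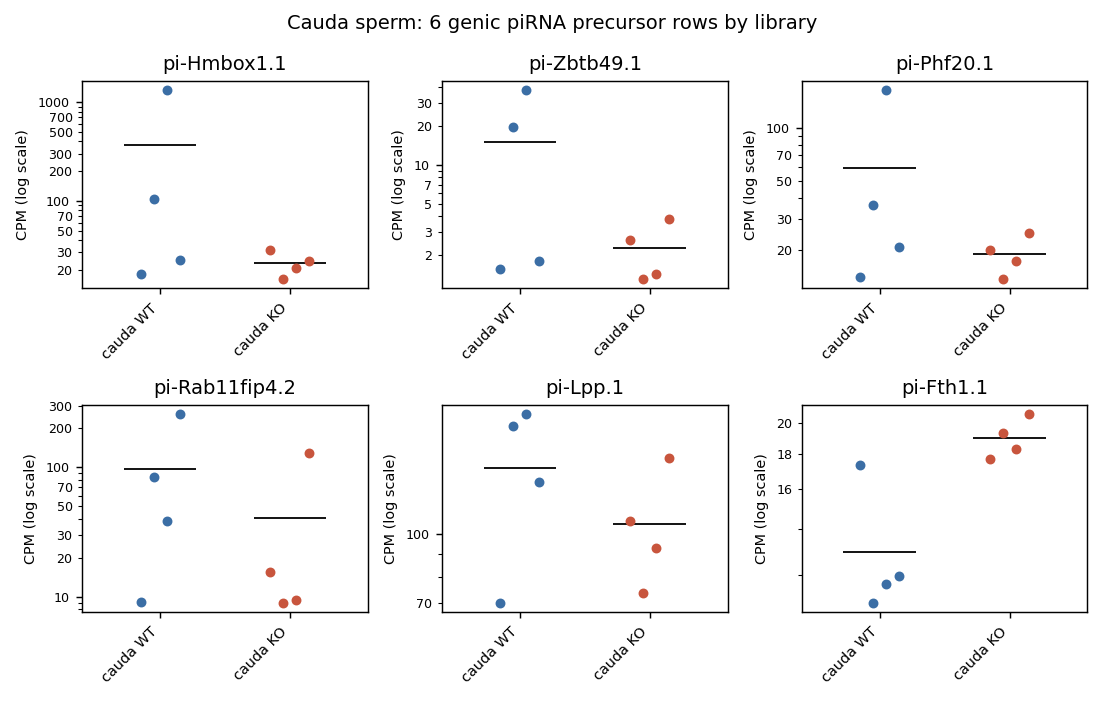
CPM (log scale) of 6 genic piRNA rows in each cauda sperm library, with WT in blue and KO in red; horizontal lines are group means. pi-Hmbox1.1, pi-Zbtb49.1 and pi-Phf20.1 were highest in the same WT library, and pi-Rab11fip4.2 was high in 1 KO and 1 other WT library.

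Igf2bp1 and Trim71 were tested in all 3 tables and had no row called in any comparison. Fbxo41, Gm5878 and Tktl2 passed the low-count filter in sperm only and were not called there.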

How the data were processed

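The authors deposited raw read counts, 1 table each for tissue, fluid and sperm. Per their methods, reads were trimmed with cutadapt, mapped with bowtie2 in a modified tRAX pipeline to mm10 plus rRNA and mature tRNAs, and counted on tRNA, rRNA repeat, Ensembl gene and piPipes piRNA features. Best mappings were kept, except that reads best matching tRNAs, or rRNA and its repeats, lost their other mappings. Submitters' processing notes also name UMI-tools. Whether counting used strand is not given in the sources used here. Libraries were grouped by title, since the section label said cauda for WT caput tissue replicate 3 and all caput fluid libraries, while their titles gave caput.

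Each table was fitted whole with the edgeR 4.0.16 quasi-likelihood test (R 4.3.3; TMM, filterByExpr with a minimum count of 10 and total of 15). Benjamini-Hochberg adjustment ran over all rows, and calls needed an adjusted p under 0.05 with more than a 2-fold change (1 on the log2 scale). CPM were computed by edgeR from TMM-scaled library sizes. DESeq2 1.42.0 and the other alternatives are in the closing section. Calls of these alternatives were counted for genic rows only, so no share of all rows is given beside them. Scripts were tested on simulated data. Same-numbered libraries were taken as pairs where every correlation of their deviations from the group means exceeded 0.1: KO and WT cauda tissue (0.28, 0.27, 0.60), WT corpus and caput tissue (0.31, 0.38, 0.55) and WT cauda and caput tissue (0.31, 0.39, 0.63). The study calls its libraries biological replicates. How many mice a tissue library holds is not given in the sources used here.

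Members, host lists and marker lists were chosen with earlier results of these data known, and lists by function after values were seen. Rows named were, per table, the 8 loci of highest WT mean CPM; per comparison, up to 5 loci of smallest p among called rows, or the 2 of smallest p where none was called; and loci called in several comparisons. pi-Klhl11.1, pi-Ctdsp2.1 and pi-D730040F13Rik.1 in tissue, and pi-Cbx5.2, pi-Ddx19b.2, pi-Fth1.1 and pi-Lpp.1 where not called, were added after their values were seen.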

Additional observations from a re-analysis of the deposited data

Results flagged for a closer look

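In sperm, the named rows and the genic share were searched in each group of 4 libraries, 20 combinations in all. In 3 of them, all for named rows, 1 library stood apart from the rest of its group. These were pi-Hmbox1.1 in WT (1316 CPM in replicate 3), pi-Phf20.1 in WT (165 CPM in replicate 3) and pi-Rab11fip4.2 in KO (130 CPM in replicate 4). Chance would mark about 1 in 20 such combinations if they were independent and their values normally distributed. They are not independent, since all come from the same 8 libraries and 2 of the 3 concern the same library. Rows such as pi-Hmbox1.1 were also named for a high WT mean that this library raises.

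The KO effect on pi-Arhgap20 differed between corpus and cauda fluid by a test of the difference itself, with a log2 difference of -2.64 for pi-Arhgap20.1 and -2.59 for pi-Arhgap20.2. The call was lost when any corpus fluid library was left out, and also without cauda KO replicate 1 or 2 or cauda WT replicate 1 or 3. For pi-Phf20.1, KO and WT fluid did not overlap in any segment but the direction turned, with log2 fold changes of -0.39 in caput, -0.59 in corpus and 0.74 in cauda. Of these, the corpus and cauda effects differed by -1.33 (edgeR adjusted p = 0.13), which did not pass. The caput effect was not tested against the others. The row was found by searching the named rows for such a turn. Over all rows, KO and WT did not overlap for 26% in caput, 36.1% in corpus and 9.94% in cauda fluid.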

How the results depend on the processing

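The higher values of genic rows in WT corpus and cauda than in WT caput tissue held in every alternative run, with 84 to 204 rows called in corpus and 105 to 225 in cauda. The lowest counts came from 1 row per locus (84 and 105 of 110), and corpus had 110 with its groups fitted alone and 123 to 196 with 1 library left out. The fall from caput to cauda fluid gave 27 with library size alone, 23 with scaling on rows other than tRNA and rRNA, 9 without a filter, 18 with its groups alone, 15 with 1 row per locus and 6 to 34 with 1 library left out. KO corpus fluid gave 3, 18, 3, 4 and 1 in that order and 0 to 4 with 1 library left out. WT corpus against caput fluid gave 0, 11 and 2 for the first 3, 1 with 1 row per locus and 0 to 2 with 1 library left out. The fluid difference gave 0, 20, 0, 0 and 1, and 0 to 3. DESeq2 called 3 rows in KO corpus tissue, 2 in KO cauda fluid and 6 in sperm. Leaving out 1 library gave 0 to 2 in KO cauda fluid and 0 to 6 in sperm, where 6 came without WT replicate 4. As a share of counts other than rRNA and tRNA, the log2 ratio was 0.12 for KO corpus fluid (0.59 of all counts) and 0.37 for WT corpus against caput fluid (-0.01). The causes were not tested. Of 546 values of single named rows, 446 kept their direction and side of the threshold, 91 lost the call, 9 gained it and 0 reversed.

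With the replicate number as a block, 3 rows were called in KO cauda tissue, 204 in WT corpus against caput tissue and 224 in WT cauda against caput tissue. The other comparisons did not meet the rule for pairs given above, and whether their same-numbered libraries were linked is not stated in the sources used here. For them the block gave 8 in KO corpus fluid, 43 in WT cauda against caput fluid, 6 in WT corpus against caput fluid, 2 for the fluid difference and 0 elsewhere. Low counts limit fluid most, where 10 rows of the other tables were not listed.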
